A study of Sus scrofa with 24 samples.

Results

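MYO9A, MYO9B, SSH2 and MKL1 are genes of the actin and myosin machinery that gave circular RNAs (circRNAs) in the spleen of Meishan pigs, and 10 of the 3000 circRNAs in the count table came from them. A circRNA was assigned to one of these genes when both ends of its back-splice lay within 1 base of exon ends of that gene on the same strand, in the RefSeq annotation of Sscrofa11.1. MYO9A held 5 of the circRNAs, MYO9B 2, MKL1 2 and SSH2 1. Of the 10, 5 (circRNA_02737 and circRNA_02751 of MYO9A, circRNA_21145 of MYO9B, circRNA_08458 of SSH2 and circRNA_27744 of MKL1) were selected on earlier results for these same counts, their back-splice reads over the stages, so their levels are given as a description with no test. The other 5 (circRNA_02742, circRNA_02772 and circRNA_02774 of MYO9A, circRNA_21138 of MYO9B and circRNA_27742 of MKL1) are in the set only through their host gene and were tested. The libraries were made from whole spleens of healthy Meishan pigs, a Chinese indigenous breed, on 1 diet and with no treatment, at 1, 7, 14 and 21 days, at 28 and 35 days, and at 120 and 180 days after birth (stages 1d to 180d). Each stage had 3 pigs, each sacrificed at its own stage and giving 1 library, so the stages compare different animals.

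A circRNA forms when the end of a downstream exon is spliced back to the start of an upstream exon, and the closed ring has no free ends and is slow to decay. The proteins of these 4 genes are tied to actin, and the myosins among them act on the small GTPase RhoA, which controls actin filaments. MYO9A and MYO9B are class IX myosins, motors that move along actin and carry a domain in the tail that switches RhoA off, and MYO9B is known for its part in the migration of leukocytes. SSH2 is a slingshot phosphatase, which removes the inhibitory phosphate from cofilin so that cofilin can sever and turn over actin filaments. MKL1, also called MRTFA, is held back by unpolymerized actin and, once released, works in the nucleus as a coactivator of the transcription factor SRF on cytoskeletal genes.

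The sequences of 4 of the 5 singled-out circRNAs, each read from the Sscrofa11.1 genome over the annotated exons between the back-splice ends, are shown because the levels described below turn on these rings. The first and the last 15 nt are in capitals, and they are the letters that the back-splice joins, last to first. Whether introns were kept inside a ring was not measured. The MYO9A circRNA of exons 16 to 18 (260 nt, 40.4% GC) is on chr1:169468880-169482865, minus strand, the SSH2 circRNA of exons 4 to 6 (291 nt, 45.7% GC) on chr12:45870808-45887992, minus strand, the MYO9B circRNA of exons 5 to 7 (264 nt, 47.7% GC) on chr2:60502168-60503198, minus strand, and the MKL1 circRNA of exons 7 to 8 (238 nt, 55.9% GC) on chr5:7960350-7961485, plus strand.
circRNA_02751, MYO9A: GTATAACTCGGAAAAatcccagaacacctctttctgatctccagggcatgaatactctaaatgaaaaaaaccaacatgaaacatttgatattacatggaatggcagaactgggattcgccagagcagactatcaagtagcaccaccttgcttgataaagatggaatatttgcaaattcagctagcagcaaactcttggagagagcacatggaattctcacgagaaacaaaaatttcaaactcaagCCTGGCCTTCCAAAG
circRNA_08458, SSH2: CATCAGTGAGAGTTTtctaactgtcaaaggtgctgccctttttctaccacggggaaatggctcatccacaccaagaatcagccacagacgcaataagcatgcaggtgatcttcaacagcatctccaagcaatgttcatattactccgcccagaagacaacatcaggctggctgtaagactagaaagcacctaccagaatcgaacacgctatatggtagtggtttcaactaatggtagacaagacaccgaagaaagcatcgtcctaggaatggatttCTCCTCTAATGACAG
circRNA_21145, MYO9B: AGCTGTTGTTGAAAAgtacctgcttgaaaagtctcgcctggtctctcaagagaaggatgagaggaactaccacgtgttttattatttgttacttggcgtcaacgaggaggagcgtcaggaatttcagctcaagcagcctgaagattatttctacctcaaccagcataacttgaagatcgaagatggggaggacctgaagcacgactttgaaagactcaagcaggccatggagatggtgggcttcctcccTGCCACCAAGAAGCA
circRNA_27744, MKL1: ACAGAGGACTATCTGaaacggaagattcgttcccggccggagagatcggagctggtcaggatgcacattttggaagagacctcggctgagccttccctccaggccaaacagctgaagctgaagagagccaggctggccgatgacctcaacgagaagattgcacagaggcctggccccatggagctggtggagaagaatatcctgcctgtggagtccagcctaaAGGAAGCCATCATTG

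The other singled-out circRNA, circRNA_02737, and the tested circRNA_02742 are a nested pair in MYO9A, and their junctions are shown because a single exon sets them apart. Both rings begin with exon 31, on chr1:169420292-169424282 and chr1:169422161-169424282, minus strand. circRNA_02742 ends with exon 32 (306 nt) and circRNA_02737 runs on through exon 33 (354 nt). Each junction is written with the last 15 nt of the ring in lower case and its first 15 nt in capitals. The capitals are the same in both, and the lower case letters come from exon 33 in the one and exon 32 in the other. The 48 nt of exon 33, chr1:169420292-169420339, that circRNA_02737 holds in addition follow on the last line.
circRNA_02737 junction: aaagaaactgacttaATGAATGACCTAGAT
circRNA_02742 junction: tatatacccacaaagATGAATGACCTAGAT
MYO9A exon 33: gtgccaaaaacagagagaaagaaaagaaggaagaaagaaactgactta

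**Figure D1:**
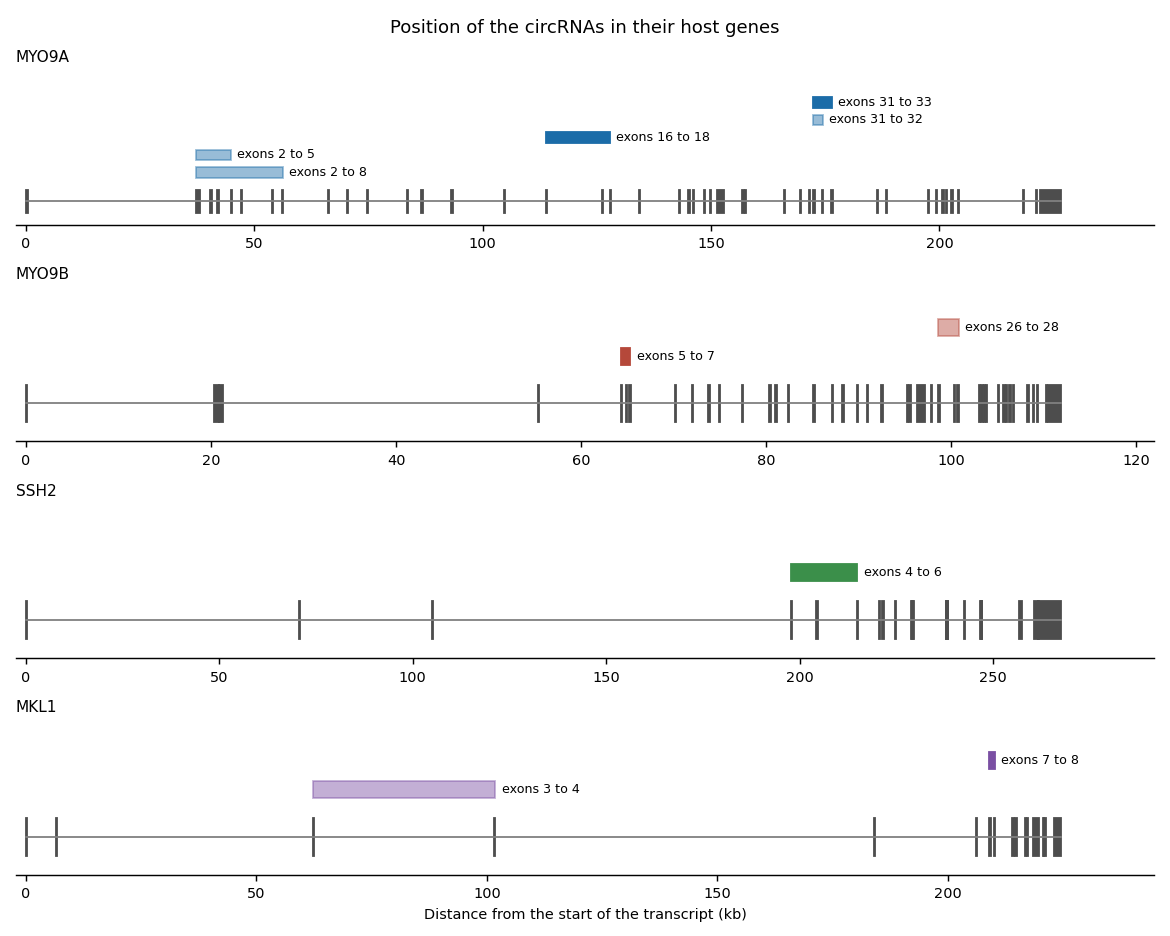
The 10 circRNAs along the annotated transcript of each host gene, with distance from the transcript's start in kb on the x axis, exons as dark bars and circRNAs as coloured boxes (strong colour, singled out; pale colour, tested). The 5 MYO9A circRNAs lie in 3 places of the gene, and 2 pairs of them share the exon at which they begin.

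The circRNAs lay in different parts of the genes. In MYO9A (chr1:169370028-169596771, 44 exons in the transcript used for numbering), circRNA_02774 spanned exons 2 to 5 (chr1:169551755-169559446) and circRNA_02772 exons 2 to 8 (chr1:169540497-169559446), and both include the annotated start of the coding sequence with the end of the 5′ UTR. In MYO9B (chr2:60455605-60567479, 42 exons), circRNA_21138 spanned exons 26 to 28 (chr2:60466633-60468872). In MKL1 (chr5:7751350-7975927, 16 exons), circRNA_27742 spanned exons 3 to 4 (chr5:7813518-7853188), and SSH2 (chr12:45818103-46085720, 20 exons) held no other circRNA of the table. The remaining 8 circRNAs were made of coding sequence throughout, and 6 of those 8 had a length that is a multiple of 3, beside 36.0% of the 2120 fully coding circRNAs of the table. The multiples of 3 were circRNA_02737, circRNA_02742, circRNA_08458, circRNA_21138, circRNA_21145 and circRNA_27742. Whether any ring is translated was not measured.

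The rings were short. Their median length was 315 nt (238 to 1451 nt) beside 432 nt over 2838 circRNAs with annotated exons, and 7 of 10 were under that median. The median GC content was 43.0% beside 43.3%, with the MYO9A pair at exon 31 lowest (36.2% and 36.3%) and both MKL1 circRNAs highest (55.9%). The length of 3 exons, held by 5 of 10, was found in 27.0% of the 2838. All 10 had AG before the first exon and GT after the last exon in the genome, as had 2826 of the 2838. Back-splices were detected by these signals and matched to exon ends, so this does not set the 10 apart.

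The introns beside the rings differed widely. The upstream intron was 92689 nt long for the SSH2 circRNA, at the 98.5th percentile of the table, and 791 nt for both rings of MYO9A that begin at exon 31. Inverted matches between the 2000 nt of intron on each side, which can bring the ends of a ring together by base pairing, were found by blastn in 7 of 10, beside 62.3% of 2827 circRNAs. The longest belonged to circRNA_27744 of MKL1 (289 nt at 83.0% identity, 97.7th percentile) and circRNA_08458 of SSH2 (266 nt at 79.7% identity, 86.4th percentile). No match was found for circRNA_02751 and circRNA_02772 of MYO9A or circRNA_27742 of MKL1.

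The unit throughout is the back-splice read, a read that crosses the joined ends, so a value counts 1 junction whatever the length of the ring. The table total was 16273 to 23752 back-splice reads on day 1, 19174 to 25283 on day 7 and 71092 to 87867 on day 120, with 29718 to 57890 at the stages in between and on day 180. These totals cover the 3000 listed circRNAs and are not the sequencing depth. The table holds no count of 1, so a circRNA seen once in a library is listed at 0. A TMM-scaled count is the count after division by the library's effective size and multiplication by the geometric mean of the effective sizes over the 24 libraries. In whole spleen, more cells of a type and more of a circRNA per cell cannot be told apart.

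MYO9A was the host gene with the most back-splice reads of the 4, and its circRNA of exons 31 to 33 the most abundant member. circRNA_02737 had 5, 6 and 8 back-splice reads in the 3 libraries of 1d, 6, 5 and 6 on day 7, 14, 15 and 9 on day 14, 18, 12 and 28 on day 21, 21, 18 and 19 on day 28, 24, 31 and 24 on day 35, 48, 51 and 56 on day 120 and 39, 56 and 51 on day 180. It was the only member with reads in all 24 libraries, and its mean level ranked 381 among the 3000. On the TMM scale its level was 10.6 ± 1.24 (SD, n = 3) on day 1, 26.4 ± 3.54 on day 120 and 40.0 ± 1.70 on day 180. Every library from 120d and 180d was above every library from 1d, and the 3 libraries of 180d (38.2 to 41.6) were above all others.

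The MYO9A circRNA of exons 16 to 18 was low on day 1 and highest on day 180. circRNA_02751 had 7, 3 and 0 reads on day 1, 0, 3 and 3 on day 7, 4, 4 and 4 on day 14, 2, 7 and 14 on day 21, 10, 11 and 7 on day 28, 11, 11 and 16 on day 35, 20, 19 and 33 on day 120 and 32, 37 and 24 on day 180. Its TMM-scaled level was 6.29 ± 7.07 (SD, n = 3) on day 1, 12.1 ± 3.42 on day 120 and 26.3 ± 8.08 on day 180. The libraries of 1d and 120d overlapped, and those of 180d were above both.

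For MYO9B, the circRNA of exons 5 to 7 held most of the reads. circRNA_21145 had 0, 5 and 5 reads on day 1, 4, 3 and 0 on day 7, 13, 12 and 6 on day 14, 8, 13 and 28 on day 21, 18, 15 and 8 on day 28, 14, 32 and 17 on day 35, 46, 38 and 64 on day 120 and 28, 44 and 46 on day 180. Its TMM-scaled level was 5.26 ± 4.56 (SD, n = 3) on day 1, 24.9 ± 5.29 on day 120 and 32.0 ± 2.33 on day 180. Both later stages were clear of 1d, and its share of MYO9B reads ranged from 63.3% to 88.9% over the stage means.

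The single SSH2 circRNA had stage means of 6.61 to 12.9 TMM-scaled counts from 1d to 35d. circRNA_08458 had 0, 6 and 7 reads on day 1, 7, 0 and 6 on day 7, 7, 9 and 8 on day 14, 13, 16 and 15 on day 21, 8, 7 and 12 on day 28, 6, 23 and 13 on day 35, 43, 36 and 47 on day 120 and 23, 19 and 51 on day 180. Its TMM-scaled level was 6.81 ± 5.91 (SD, n = 3) on day 1, 21.3 ± 1.31 on day 120 and 25.5 ± 12.3 on day 180. The pigs of 180d were far apart, from 13.7 to 38.2, and all 3 were above the libraries of 1d.

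The MKL1 circRNA of exons 7 to 8 was about as high on day 35 as at the later stages. circRNA_27744 had 0, 6 and 2 reads on day 1, 5, 6 and 4 on day 7, 8, 14 and 0 on day 14, 9, 17 and 43 on day 21, 21, 17 and 12 on day 28, 18, 34 and 39 on day 35, 57, 44 and 46 on day 120 and 18, 23 and 37 on day 180. Its TMM-scaled level was 4.30 ± 5.06 (SD, n = 3) on day 1, 24.2 ± 4.74 on day 35, 24.9 ± 2.34 on day 120 and 21.2 ± 5.86 on day 180. The libraries of 35d, 120d and 180d overlapped with each other and were all above those of 1d.

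**Figure D2:**
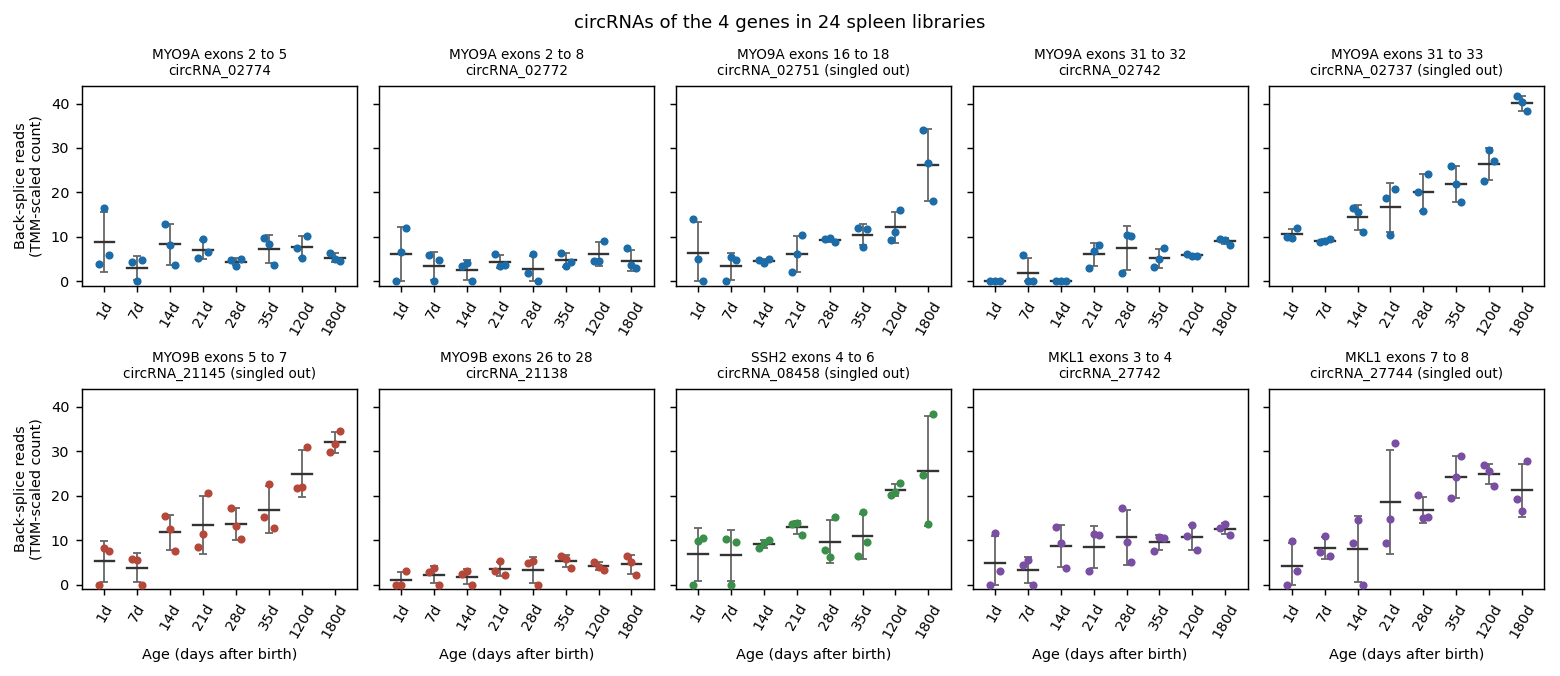
TMM-scaled back-splice reads of each circRNA (y axis) at each age in days (x axis), with 1 point per pig, the stage mean as a short line and the SD as an error bar that stops at 0 (n = 3). The 5 singled-out circRNAs reach means of 21.2 to 40.0 on day 180, and circRNA_02772 and circRNA_02774 of MYO9A stay at means of 2.56 to 8.82.

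Of the 5 circRNAs that only the host gene put in the set, 1 passed the test of the age trend and the other 4 did not. The test is a slope of the counts on log2 of the age, from 1 edgeR quasi-likelihood fit over all 3000 circRNAs, with Benjamini-Hochberg adjustment over all of them. In that test 10.7% of all circRNAs rose and 5.77% fell. The circRNA that passed was circRNA_02742 of MYO9A, the shorter of the exon 31 pair, with a slope of 0.46 log2 units per doubling of age (SE 0.13, edgeR adjusted p = 0.00686). It also passed the test over the 7 stage differences together, in which 8.97% of all circRNAs passed (edgeR adjusted p = 0.00636).

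circRNA_02742 was listed at 0 in every library of 1d and of 14d. It had 4, 0 and 0 reads on day 7, 3, 8 and 11 on day 21, 2, 12 and 8 on day 28, 3, 7 and 10 on day 35, 13, 10 and 12 on day 120 and 9, 13 and 11 on day 180. Its TMM-scaled level was 5.91 ± 0.18 (SD, n = 3) on day 120 and 9.07 ± 0.72 on day 180, and all libraries from 21d onward had reads. The zeros in the 3 libraries of 1d still allow a floor of 7 expected reads, a 95% limit for counting error. The mean was 1.5 times that floor on day 120 and 2.3 times on day 180. These ratios leave out the counting error of the later means, so they are not lower bounds.

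Both stage comparisons of circRNA_02742 with 1d passed at an adjusted p under 0.05 with a fold of at least 2 in the fit. The edgeR adjusted p was 0.0363 for 120d, where 4.63% of all circRNAs were called higher and 1.47% lower, and 0.00955 for 180d, where 5.9% were called higher and 3.4% lower. The call on day 120 was lost when any 1 library of 1d or 120d was left out (adjusted p from 0.0565 to 0.108). All 4 calls were lost when each library was thinned to the lowest table total (edgeR adjusted p = 0.17 for the trend, with the slope still at 0.46), and the trend was lost without 1d and 7d, the stages with the fewest reads (slope 0.33, edgeR adjusted p = 0.224). The trend was also lost in the 17 libraries with a valid-base share of at least 0.96 (slope 0.64, edgeR adjusted p = 0.0525). That share is the part of the bases that the study's library list counts as valid. Of 120d and of 180d only replicate 1 was left there, so no stage comparison is read from those libraries.

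The second circRNA of MKL1, circRNA_27742 of exons 3 to 4, had a smaller slope that did not pass. It had 0, 7 and 2 reads on day 1, 3, 3 and 0 on day 7, 11, 9 and 3 on day 14, 3, 13 and 15 on day 21, 18, 11 and 4 on day 28, 7, 15 and 14 on day 35, 23, 23 and 16 on day 120 and 12, 19 and 15 on day 180. The slope was 0.19 log2 units per doubling of age (SE 0.07, edgeR adjusted p = 0.0653). It passed in DESeq2 (adjusted p = 0.049) and in edgeR without replicate 2 of 1d (adjusted p = 0.0178), the library of 1d with the most of its reads. Its TMM-scaled level of 4.85 ± 5.98 (SD, n = 3) on day 1 overlapped with 12.6 ± 1.22 on day 180. With clean reads as the library size its slope was 0.409 and passed (edgeR adjusted p = 4.58e-05). The median slope of all circRNAs on that scale was 0.252.

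The second circRNA of MYO9B was rare, at the 4.4th percentile of mean level in the table. circRNA_21138, of exons 26 to 28, had 0 to 11 reads in a library and was listed at 0 in 5 of 24. The mean was 1.005 ± 1.74 (SD, n = 3) on day 1 and 4.56 ± 2.12 on day 180, and the slope of 0.24 (SE 0.12) did not pass (edgeR adjusted p = 0.162). With clean reads as the library size the slope was 0.456 and passed (edgeR adjusted p = 0.00157), beside a median of 0.252 over all circRNAs.

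The 2 circRNAs of MYO9A that start at exon 2 had slopes close to 0 on the TMM scale. circRNA_02774, of exons 2 to 5, had 2, 10 and 4 reads on day 1, 16, 9 and 21 on day 120 and 6, 7 and 6 on day 180, and its slope was -0.03 log2 units per doubling of age (SE 0.08, edgeR adjusted p = 0.81). circRNA_02772, of exons 2 to 8, had 0, 4 and 8 reads on day 1, 10, 8 and 19 on day 120 and 7, 5 and 4 on day 180, with a slope of 0.00 (SE 0.09, edgeR adjusted p = 0.98). Their TMM-scaled levels on day 180, 5.31 ± 0.98 and 4.69 ± 2.43 (SD, n = 3), lay within the spread of 1d. With clean reads as the library size the slopes were 0.19 for circRNA_02774 (adjusted p = 0.0539) and 0.22 for circRNA_02772 (adjusted p = 0.0597), and without 1d and 7d that of circRNA_02772 was 0.21 (adjusted p = 0.474).

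The libraries were also compared by whether the stages overlapped. On day 120 all 3 libraries were above all of 1d for 6 of the 10 circRNAs, which were circRNA_02737, circRNA_02742, circRNA_08458, circRNA_21138, circRNA_21145 and circRNA_27744, beside 18.8% of all circRNAs. On day 180 this held for circRNA_02751 in place of circRNA_21138, beside 17.9%. Of these 7, 5 were singled out on these counts, so their part in the count is not a result.

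The make-up of the MYO9A reads was set side by side over the stages, with no test, since singled-out circRNAs enter it. The rings that start at exon 2 made up 28.1% (circRNA_02774) and 21.1% (circRNA_02772) of the 57 MYO9A reads pooled on day 1 and 6.19% and 5.21% of 307 on day 180. The exon 31 pair stood at 33.3% and 47.6% for circRNA_02737 and at 0% and 10.7% for circRNA_02742, and circRNA_02751 at 17.5% and 30.3%. Mean shares over the 3 libraries showed a wide spread on day 1, as 21.0% ± 25.9 (SD) for circRNA_02751.

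**Figure D3:**
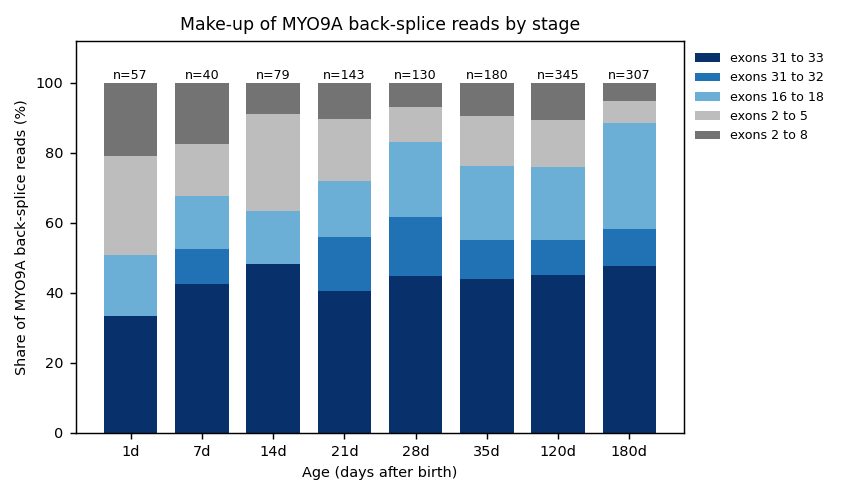
Share of each circRNA in the MYO9A back-splice reads pooled over the 3 libraries of a stage (y axis, %), by age in days (x axis), with the number of reads above each bar. The grey parts, the rings that start at exon 2, shrink from 49.1% of the reads on day 1 to 11.4% on day 180.

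Without the singled-out rings, circRNA_02742 was set beside the summed reads of the pair that starts at exon 2. These rings were put side by side after their values were seen, so the shares are a description with no test. Of the reads of these 3 circRNAs, circRNA_02742 held 0 of 28 on day 1 and 0 of 29 on day 14. The zeros of either stage still allow the floor of 7 reads. As a ratio to the listed reads, all from the exon 2 rings, that floor is 25.0% on day 1 and 24.1% on day 14. These ratios are not shares of the reads of all 3 circRNAs, as the percentages of the other stages are. On day 7 circRNA_02742 held 4 of 17 (23.5%, exact binomial 95% interval 6.8 to 49.9). From 21d on it held 22 of 62 (35.5%, 23.7 to 48.7), 22 of 44 on day 28 (50.0%, 34.6 to 65.4), 20 of 63 on day 35 (31.7%, 20.6 to 44.7), 35 of 118 on day 120 (29.7%, 21.6 to 38.8) and 33 of 68 on day 180 (48.5%, 36.2 to 61.0). The intervals and floors cover counting error only.

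Summed over its circRNAs, each gene had its lowest mean on day 1 or day 7 and its highest on day 120 or day 180. MYO9A had a TMM-scaled level of 32.0 ± 5.24 (SD, n = 3) on day 1, 21.2 ± 5.71 on day 7, 29.95 ± 9.13 on day 14, 40.5 ± 7.84 on day 21, 44.1 ± 5.08 on day 28, 49.8 ± 6.58 on day 35, 58.3 ± 9.13 on day 120 and 85.4 ± 13.6 on day 180. With stages ordered by mean, the ranges of all neighbours overlapped except those of 120d and 180d. MYO9B went from 6.26 ± 5.54 on day 1 and 5.97 ± 5.17 on day 7 over 13.6 ± 5.40 on day 14, 17.0 ± 5.73 on day 21, 16.9 ± 6.12 on day 28 and 22.1 ± 6.03 on day 35 to 29.1 ± 4.59 on day 120 and 36.6 ± 0.24 on day 180, and again only 120d and 180d were apart from each other among neighbours. The MYO9B sums on day 180 were within 36.3 to 36.7 in all 3 pigs. How often neighbouring stages lie apart was not counted over all host genes, and singled-out circRNAs enter these sums. The gaps are therefore a description with no test, here and for SSH2 and MKL1.

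For SSH2, which has 1 circRNA, the only neighbours in the order of means that did not overlap were 21d (12.9 ± 1.53) and 120d (21.3 ± 1.31). MKL1 went from 9.14 ± 11.04 on day 1 over 11.5 ± 5.01 on day 7, 16.7 ± 11.2 on day 14, 27.1 ± 15.2 on day 21 and 27.5 ± 8.94 on day 28 to 33.7 ± 6.22 on day 35, 35.5 ± 4.79 on day 120 and 33.7 ± 4.65 on day 180. Every pair of neighbours in its order overlapped, so no step in the MKL1 course exceeded the spread between pigs.

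The ratio between late and early stages depended on the scale, and it is a description, since singled-out circRNAs enter each sum. The mean on day 180 was 2.67 times that on day 1 for MYO9A, 5.84 times for MYO9B, 3.74 times for SSH2 and 3.69 times for MKL1 on the TMM scale. With counts divided by the clean reads of each library instead, it was 5.63, 11.75, 7.56 and 7.75 times. TMM takes the shift shared by most circRNAs out, and the per-read scale keeps it. The median log2 change of all 3000 circRNAs from 1d to 180d was 0.20 on the first scale and 1.27 on the second, and to 120d it was 0.26 and 1.99.

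**Figure D4:**
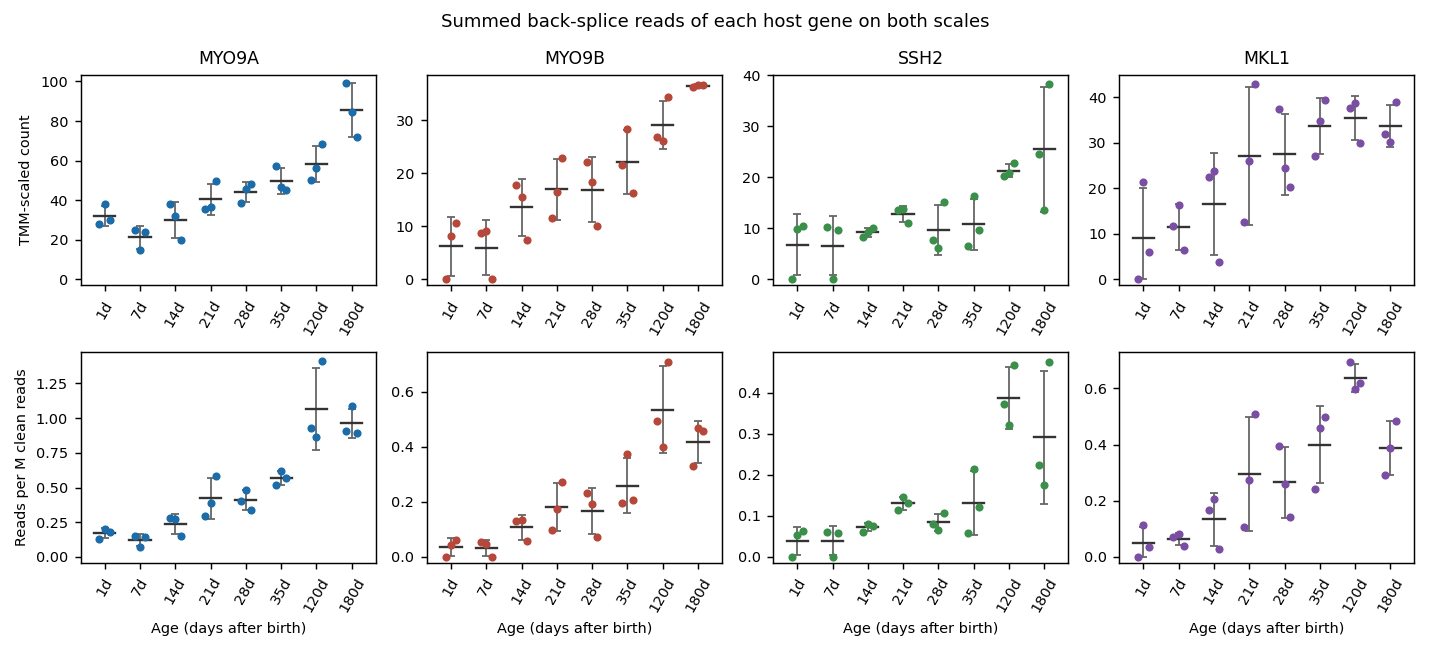
Summed back-splice reads of each host gene at each age (x axis, days) as TMM-scaled counts (upper row) and per M clean reads (lower row), with 1 point per pig, the mean as a short line and the SD as an error bar that stops at 0 (n = 3). MYO9A is highest on day 180 on the upper scale (85.4) and on day 120 on the lower one (1.07).

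The other genes of actin and myosin control were read from 8 lists, and 33 of the 223 listed genes had a circRNA in the table. Their circRNA counts were summed per gene and tested over 1670 host genes with edgeR at an adjusted p under 0.05. In the age trend 8 of the 33 rose and 2 fell, where 13.8% of all host genes rose and 9.46% fell. On day 180 against 1d 4 rose and 0 fell, where 8.44% rose and 5.99% fell. The median slope of the 33 was 0.05 log2 units per doubling of age beside 0.02 over all host genes, and the median difference on day 180 was 0.29 beside 0.14. Without 1d and 7d 3 of the 33 passed the trend, 4 did in thinned counts and 1, TESK2, in the 17 libraries with a valid-base share of at least 0.96.

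None of the 37 other myosins had a circRNA in the table. Among the regulators of myosin activity, 5 of 23 were measured, of which 1 rose and 1 fell in the trend, and 4 are described here. CIT, the citron kinase of cell division, fell with a slope of -0.25 (SE 0.08, edgeR adjusted p = 0.0156), from 13.7 ± 4.54 on day 1 to 5.10 ± 5.03 on day 180 (TMM-scaled count, SD, n = 3). Its highest mean was 29.7 ± 10.35 on day 7, and 180d against 1d did not pass (edgeR adjusted p = 0.108). With clean reads as the library size the slope of CIT was 0.003 (adjusted p = 0.97). PPP1R12A, PPP1CB and CDC42BPA did not pass, with slopes of 0.02, 0.10 and 0.02.

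In the cofilin cycle, where SSH2 acts, 1 of 21 genes was measured. TESK2, a kinase that phosphorylates cofilin and so works against the slingshot phosphatases, rose with a slope of 0.15 (SE 0.03, edgeR adjusted p = 3.58e-05), from 92.4 ± 14.8 on day 1 to 219 ± 74.8 on day 180. It had the highest mean level of the 33 genes (174 TMM-scaled counts). Without 1d and 7d its slope was 0.09 (edgeR adjusted p = 0.219).

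Of the formins, which start and extend unbranched actin filaments, 2 of 15 were measured. DIAPH2 rose with a slope of 0.12 (SE 0.04, edgeR adjusted p = 0.00947), from 64.4 ± 17.6 on day 1 to 129 ± 33.4 on day 180. DIAPH3 fell with a slope of -0.25 (SE 0.08, edgeR adjusted p = 0.0217), from 8.80 ± 2.47 to 2.78 ± 0.48, and with clean reads as the library size its slope was -0.02 (adjusted p = 0.834). Its highest mean was 11.8 ± 2.45 on day 21, and 180d against 1d did not pass (edgeR adjusted p = 0.106). Without 1d and 7d the slope of DIAPH2 was 0.10 (adjusted p = 0.187), and in thinned counts that of DIAPH3 was -0.29 (adjusted p = 0.157).

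Among the genes that branch actin through the Arp2/3 complex 10 of 37 were measured and 3 rose. WHAMM, an activator of the complex on internal membranes, had the largest slope of the 3, 0.25 (SE 0.07, edgeR adjusted p = 0.00546), from 5.16 ± 5.28 on day 1 to 20.04 ± 3.99 on day 180. WASHC4 and WASHC5, subunits of the WASH complex on endosomes, had slopes of 0.09 and 0.14 (edgeR adjusted p = 0.0119 and 0.0447). None of the 3 passed without 1d and 7d or in thinned counts, and WASHC5 was lost in 10 of the 24 fits that left out 1 library (adjusted p up to 0.113).

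Of the genes that cap, bundle or cross-link filaments 4 of 39 were measured and 2 rose. SCIN, which severs and caps filaments, was listed at 0 in all libraries of 1d and reached 10.8 ± 3.97 on day 180 (slope 0.29, SE 0.10, edgeR adjusted p = 0.0267). That mean was 2.74 times the floor of 1d, with the counting error of day 180 left out. The SCIN trend was lost in thinned counts (adjusted p = 0.102), in the 17 libraries with a valid-base share of at least 0.96 (adjusted p = 0.0508), without any 1 library of 1d or replicate 3 of 180d (adjusted p up to 0.0738), and without 1d and 7d (slope 0.07, adjusted p = 0.786). LCP1, the filament bundler of leukocytes, had a slope of 0.13 (SE 0.05, edgeR adjusted p = 0.0469). With clean reads as the library size its call was kept, and it was lost with DESeq2 size factors, in DESeq2, with the count filter, with the replicate block, in the 17 libraries, in thinned counts and without 1d and 7d (adjusted p from 0.05 to 0.585). It was also lost in 15 of the 24 fits that left out 1 library. In the list of SRF cofactors and targets 0 of 4 measured genes passed in edgeR, and the highest levels were those of CNN2 (slope 0.05) and TPM3 (slope 0.19, edgeR adjusted p = 0.148). In the list of small GTPases and kinases of actin control 0 of 7 passed in edgeR in the trend or on day 180, with slopes of 0.05 for RHOT1 and 0.08 for PAK2 at the highest levels. ARHGEF7 passed over the 7 stage differences together (edgeR adjusted p = 0.0435). So did genes of other lists, such as CIT (edgeR adjusted p = 0.000731) and TESK2 (edgeR adjusted p = 0.00304). The share of all host genes that passed over the 7 stage differences is not given here. On day 180 against 1d the genes that rose included TESK2, SCIN and DIAPH2, with log2 differences of 1.17 for TESK2 and 0.91 for DIAPH2.

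**Figure D5:**
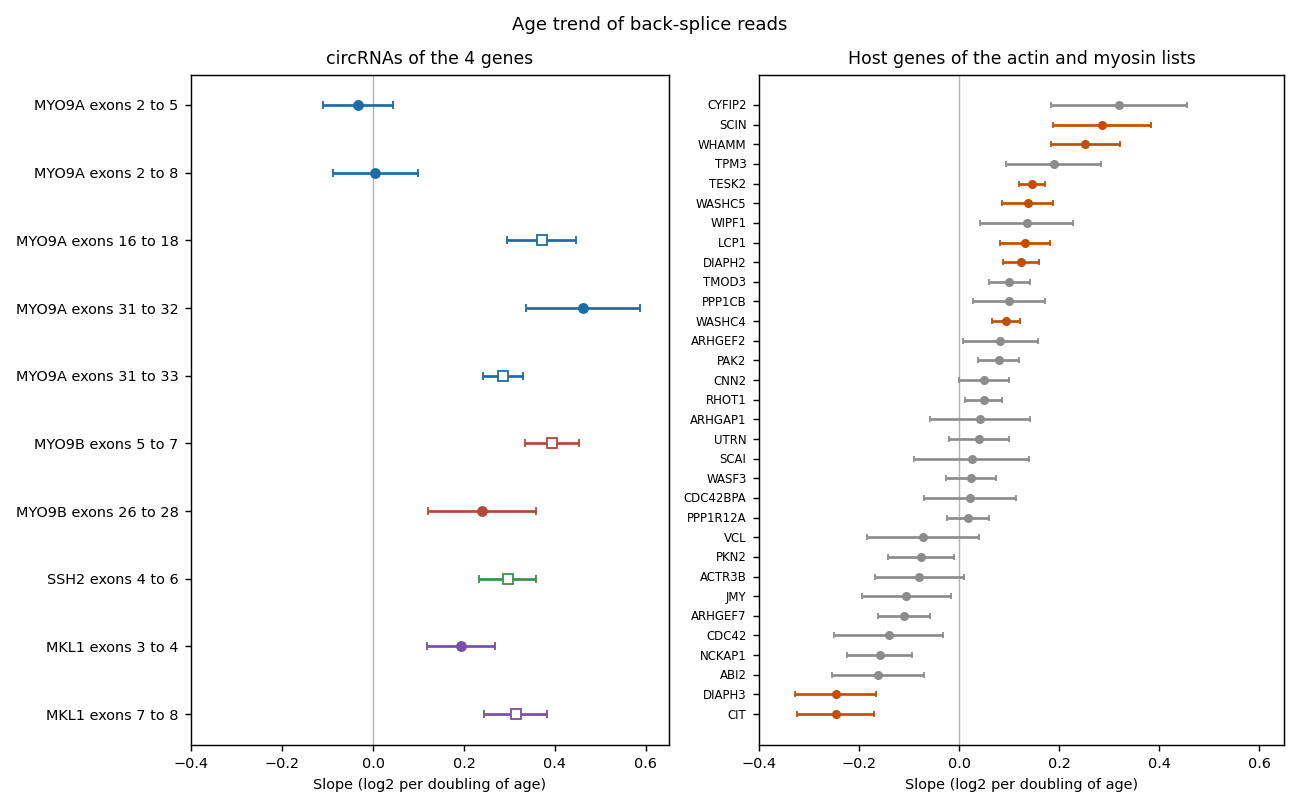
Slope of back-splice reads on age (x axis, log2 per doubling of age, bars 1 SE) for the 10 circRNAs (left; open squares were singled out from these counts, filled circles were tested) and for 32 of the 33 measured genes of the actin and myosin lists (right; orange passed at an adjusted p under 0.05). In the left panel circRNA_02742 (MYO9A exons 31 to 32) alone among the filled circles passed, at 0.46, and both rings from exon 2 sit close to 0 on this TMM scale.

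The markers of spleen cell types are poorly represented in a table of circRNAs. Of the B cell list 2 of 11 genes were measured, BANK1 and RALGPS2, and of the erythroid list 2 of 11, TFRC and EPB41, while 0 of 14 smooth muscle and stroma genes, 0 of 14 T and NK cell genes, 0 of 12 macrophage, monocyte and granulocyte genes and 0 of 8 platelet genes had a row. The summed B cell markers were 5.97 to 16.6 TMM-scaled counts in the libraries of 1d, 0 to 16.1 on day 7, 13.4 to 28.4 on day 14, 41.6 to 53.2 on day 21, 26.3 to 60.5 on day 28, 47.5 to 83.0 on day 35, 48.9 to 65.9 on day 120 and 32.3 to 77.6 on day 180. The summed erythroid markers were 109 to 143 on day 1, 128 to 172 on day 7, 92.3 to 128 on day 14, 65.1 to 141 on day 21, 60.5 to 93.0 on day 28, 64.5 to 80.1 on day 35, 69.2 to 74.6 on day 120 and 45.9 to 60.7 on day 180. Both B cell genes rose and both erythroid genes fell in the age trend on the TMM scale (edgeR adjusted p from 0.000244 to 0.0326). Slopes were 0.39 for BANK1, 0.31 for RALGPS2, -0.49 for TFRC and -0.08 for EPB41. With clean reads as the library size the median slope of all host genes was 0.255, in place of 0.02. Slopes of the marker genes on that scale are not given here. The part of B cells and erythroid cells in the levels of the 10 circRNAs was not tested.

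The host genes most like each of the 4 were taken by Pearson's r of log2 CPM over the 24 libraries, among 866 others whose mean reached 10 TMM-scaled counts. MYO9A was nearest to GRK3, a kinase of G protein-coupled receptors (r = 0.863), and to LOC110257335 (r = 0.844). MYO9B was nearest to CD96, a receptor of T and NK cells (r = 0.915), and PTBP3, a splicing regulator (r = 0.897). SSH2 was nearest to ZC3H15 (r = 0.88) and RCBTB2 (r = 0.829), and MKL1 to GCA (r = 0.864), a calcium-binding protein of granulocytes, and MNAT1 (r = 0.857), a subunit of the kinase that activates cyclin-dependent kinases. The 24 points share the stages and the read totals of the libraries, so these values describe a shared course with age and carry no test.

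Among the 10 circRNAs themselves the closest pair by the same measure was circRNA_21145 of MYO9B and circRNA_27742 of MKL1 (r = 0.881). Both were listed at 0 in replicate 1 of 1d and replicate 3 of 7d, and r without these libraries was not taken. The nested MYO9A pair circRNA_02737 and circRNA_02742 had r = 0.652, and the MYO9A pair from exon 2 had r = 0.52. Between circRNA_02751 and the exon 2 pair r was -0.147 and 0.015, although all 3 come from MYO9A. After removal of stage means, the level of circRNA_21145 also went with the table total of the library (r = 0.476), as did circRNA_27744 (r = 0.433), whereas circRNA_02751 went the other way (r = -0.329).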

How the data were processed

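Back-splice reads were counted in the spleen of 24 Meishan pigs, 3 at each of 8 stages, 1 library each. According to the study's methods, the authors removed ribosomal and linear RNA, mapped reads to Sscrofa11.1 (BWA; the submitters' processing notes also name TopHat2, FastQC and cutadapt) and used CIRI2 to detect back-splices flanked by GT-AG signals. RNA kits differ between the labels and the methods. The authors deposited whole-number counts per circRNA and library with no normalization, for 3000 circRNAs; how these were chosen is not given in the sources used here. The counts hold no value of 1, and 8.72% are 0.

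The 10 circRNAs and the gene lists were chosen with earlier results of these data known. Host genes were assigned to 2842 circRNAs (1670 genes; 6 circRNAs with more than 1 candidate were left out). Fits used edgeR 4.0.16 in R 4.3.3 (TMM, robust quasi-likelihood, no count filter) over all 24 libraries with a coefficient per stage, or with log2 of the age as the slope, two-sided, adjusted by Benjamini-Hochberg over all rows. Calls needed an adjusted p under 0.05, and between stages of circRNAs a fold of at least 2. The biological coefficient of variation was 0.30 for circRNAs and 0.24 for host genes. The tests were checked on simulated counts of the 3000 circRNAs. At 180d against 1d 12% of changes of 1 log2 unit and 41% of changes of 2 were called at an adjusted p under 0.05. In the trend 43% of slopes of 0.2 and 87% of slopes of 0.4 were called. Slopes near 0.2 that did not pass can thus be real changes that the test missed. The p-values of the stage tests set a change against the spread between pigs of 1 stage. Those of the age trend set the slope against the deviations of all 24 libraries from 1 line. These deviations hold departures of whole stages from the line as well as the spread between pigs. No libraries of a stage agreed within sampling noise (chi-square per degree of freedom at least 1.55).

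A zero stage was given a floor of 7 reads over 3 libraries, since counts of 1 are not listed. Binomial intervals used scipy 1.17.1, and inverted matches blastn 2.17.0. From the lists, genes past the threshold are named, or else the 2 with the highest mean. The values of 1 gene past the threshold are not reported here, though the counts include it. DESeq2 1.42.0, DESeq2 size factors, clean reads as library size (from the study's library list, as was the valid-base share), a count filter, the replicate block, the valid-base share and each library left out were alternatives; thinning and leaving out 1d and 7d were added after seeing the data. Valid-base shares under 0.96 occurred in 7 libraries, at 21d, 35d, 120d and 180d, so this share and the late stages cannot be fully told apart.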

Additional observations from a re-analysis of the deposited data

How the results depend on the processing

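Of the 5 circRNAs tested, 1 was called in each of the age trend, the test over any stage, 120d against 1d and 180d against 1d, and of the 33 list genes 10 were called in the trend and 4 at 180d. DESeq2 size factors left 0 calls at 120d (adjusted p = 0.0501 for circRNA_02742). The DESeq2 test called 2 in the trend. Clean reads as the library size called 3 in the trend, 2 over any stage, 4 at 120d and 2 at 180d, with 23 and 16 list genes. Under that scaling the slopes of 9 of the 33 list genes and of 1 of the 5 circRNAs, and 2 of 5 circRNA differences at 120d and 2 at 180d, went from below to above 0. Among them were circRNA_02774 at 120d (log2 1.55), ARHGEF7 (slope 0.14) and CIT (slope 0.003). The edgeR count filter removed 4 of the 5 circRNAs (circRNA_02742, circRNA_02772, circRNA_02774 and circRNA_21138) from the fit and left 0 calls in all 4 tests. Libraries with a valid-base share of at least 0.96 left 0 calls and 1 list gene in the trend, with 17 libraries in place of 24. Of 120d and of 180d only replicate 1 was left, so the tests between stages are not read there. Thinned counts left 0 in all 4 and 4 list genes in the trend, and without 1d and 7d the trend held 0 circRNAs and 3 list genes.

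Leaving out 1 library at a time gave 0 to 1 calls at 120d, 1 to 1 at 180d, 1 to 2 in the trend, 1 to 1 over any stage, 7 to 10 list genes in the trend and 3 to 6 at 180d. The lowest list counts came without replicate 1 or 2 of 1d (7 in the trend, 3 at 180d).

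Over the whole table the age trend called 495 circRNAs, against 1943 with clean reads, 117 in libraries with a valid-base share of at least 0.96, 219 in thinned counts and 235 without 1d and 7d. Of the 495, 322 rose with TMM and 276 of 495 with DESeq2 size factors; at 120d it was 139 of 183 and 88 of 143.

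Replicate numbers do not pair the pigs. Over 84 same-numbered pairs of libraries the mean correlation of deviations from stage means was 0.006 (lowest -0.081), 1 pair exceeded 0.1, and 9 of 24 libraries correlated best with their own number. With the replicate block the calls were 1, 1, 1 and 1 circRNAs and 9 and 5 list genes.

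Each member rests on 0 to 64 reads per library. The cause of the lost calls was not tested.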
